A study of Rattus norvegicus with 8 samples.

Results

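Osteopontin and 8 genes of macrophages or of the cells around them were followed in rat lung during hypobaric hypoxia: Spp1, Cd68, Marco, Mrc1, Msr1, Chi3l1, Gpnmb, Cd163 and Fabp4. The genes were chosen by name, and every array probe whose gene name equals one of these names, without regard to case and to the suffix "_predicted", was taken as theirs. By this rule 7 of the 9 genes had a probe, with 9 probes in all out of 41012 on the array, and all 7 were among the 24141 genes tested. Marco and Msr1 had no probe by the rule and have no values under their own names.

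The study hybridised lung RNA of rats to 8 two-colour arrays of 60-base probes. Cobalt-pretreated rats had received cobalt at 12.5 mg per kg body weight for 7 days, saline-pretreated rats normal saline for the same 7 days, and all were then exposed for 6, 12, 24 or 48 h to the low pressure of 30000 ft. An array compared RNA from 1 pretreatment and duration (the hypoxia RNA) with RNA of equally pretreated rats at 0 h, so each of the 8 groups held 1 array, and the 4 arrays of a pretreatment name the same 0 h RNA. Whether they used 1 tube of it is not stated. The labels give neither strain, sex and age nor the number of animals behind an RNA. Hypoxia RNA was labelled with Cy3 on the 4 cobalt arrays, which formed slide 2, and with Cy5 on the 4 saline arrays, which formed slide 1. Cobalt and saline, the slide, the scan and the dye therefore cannot be told apart. A dye bias shared by both slides cancels in the average of the 2 pretreatments, but not in the response within a pretreatment. In comparisons between durations of 1 pretreatment, slide and dye orientation are the same and a dye bias cancels.

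Macrophages of the lung comprise alveolar macrophages, which clear particles and surfactant from the airspace, and interstitial macrophages, which are fed in part by blood monocytes. They take up debris through scavenger and lectin receptors and degrade it in lysosomes. Osteopontin, encoded by Spp1, is a secreted, acidic, phosphorylated glycoprotein that binds integrins and CD44 and is cleaved by thrombin and matrix metalloproteinases. It is made by activated macrophages and also by epithelial, smooth muscle and bone cells.

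The probes behind the values are shown because each gene's result rests on 1 of them, and because Mrc1 has a pair that can be set against each other. They are printed 5′ to 3′ as deposited, with the position the array files give on rat build rn3. The Fabp4 probe spans 2415 bases of genome and the dimmer Mrc1 probe 2608 bases, so both cross an intron, whereas the other 4 lie in 1 uninterrupted stretch of 60 bases.
Spp1 (chr14:6422382-6422441, minus strand): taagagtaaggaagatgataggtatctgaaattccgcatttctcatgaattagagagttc
Chi3l1 (chr13:47160143-47160202, plus strand): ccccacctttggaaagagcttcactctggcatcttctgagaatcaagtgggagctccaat
Gpnmb (chr4:77458328-77458387, plus strand): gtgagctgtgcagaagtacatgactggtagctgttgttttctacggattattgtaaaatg
Mrc1, brighter probe (chr17:88503236-88503295, plus strand): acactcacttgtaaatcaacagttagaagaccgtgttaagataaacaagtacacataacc
Mrc1, dimmer probe (chr17:88499989-88502596, plus strand): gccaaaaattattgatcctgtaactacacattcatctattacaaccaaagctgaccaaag
Fabp4 (chr2:93481137-93483551, plus strand): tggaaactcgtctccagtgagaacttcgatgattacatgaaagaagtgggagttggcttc

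The RefSeq promoter of Spp1 (build GRCr8, 250 bases before to 50 after the start of the gene) is printed as the regulatory sequence of the gene with the highest ratio. Of 5 motifs searched on both strands (the core ACGTG of hypoxia response elements, the AP-1 site TGANTCA, the E-box CANNTG, the start of a TATA box as TATAA, and the CCAAT box), it held 1 E-box, marked by capitals, and 1 TATAA, left in lower case.
Spp1 promoter (chr14:5619755-5620054, minus strand): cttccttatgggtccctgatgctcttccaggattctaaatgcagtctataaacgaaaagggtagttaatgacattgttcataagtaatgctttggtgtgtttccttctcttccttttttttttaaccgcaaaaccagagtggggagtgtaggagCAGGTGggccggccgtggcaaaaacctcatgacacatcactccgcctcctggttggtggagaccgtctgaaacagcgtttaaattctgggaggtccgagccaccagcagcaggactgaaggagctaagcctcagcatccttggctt

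Its E-box begins 96 bases before the start site and its TATAA 204 bases before it. Of the 9 genes, 7 had a promoter in the RefSeq table and all 7 held an E-box, as did 72.1% of all 33469 promoters of that length. The core of the hypoxia response element (ACGTG) was in none of the 7, against 19.3% of all promoters. The AP-1 motif (TGANTCA) was in those of Cd68 and Gpnmb, against 7.33% of all promoters, and in both genes 1 match overlaps an E-box. TATAA was in 2 of the 7 and CCAAT in 5 of the 7, against 26.2% and 37.5% of all promoters.

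Ratios below are log2 of hypoxia RNA over 0 h RNA on 1 array, and levels are log2 normalised intensities of 1 channel. Estimates are means over arrays with the standard error of a limma fit across all 24141 genes, p-values are adjusted by the Benjamini-Hochberg method over those genes, and an adjusted p under 0.05 was called. The durations stand in for replicates, so the p-values rest on differences among arrays and durations and do not include variation among 0 h animals. In whole lung, fewer cells of a type and less RNA per cell cannot be told apart.

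Averaged over both pretreatments, 3 of the 7 measured genes were called and all 3 were higher in hypoxia: Spp1, Chi3l1 and Fabp4. Over all genes 31.9% were called in this comparison, 15.7% as higher and 16.3% as lower. The median estimate of the 7 genes was 0.25, against -0.0013 over all genes tested. Spp1 stood apart from the rest, with the 9th highest estimate of all genes tested.

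Spp1 is the ligand of the group. On the cobalt arrays its level was 11.97 in hypoxia RNA and 8.42 in 0 h RNA at 6 h, 9.28 and 7.57 at 12 h, 10.22 and 7.87 at 24 h, and 8.99 and 7.55 at 48 h. On the saline arrays it was 9.83 in hypoxia RNA and 7.47 in 0 h RNA at 6 h, 10.59 and 7.42 at 12 h, 8.49 and 7.30 at 24 h, and 11.13 and 7.90 at 48 h. Hypoxia RNA was above 0 h RNA on all 8 arrays, and the lowest hypoxia level still lay above the highest 0 h level. The log2 ratios were 3.55, 1.71, 2.35 and 1.44 at 6, 12, 24 and 48 h after cobalt, and 2.35, 3.17, 1.20 and 3.23 after saline. Neither series ran in one direction with time.

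**Figure D1:**
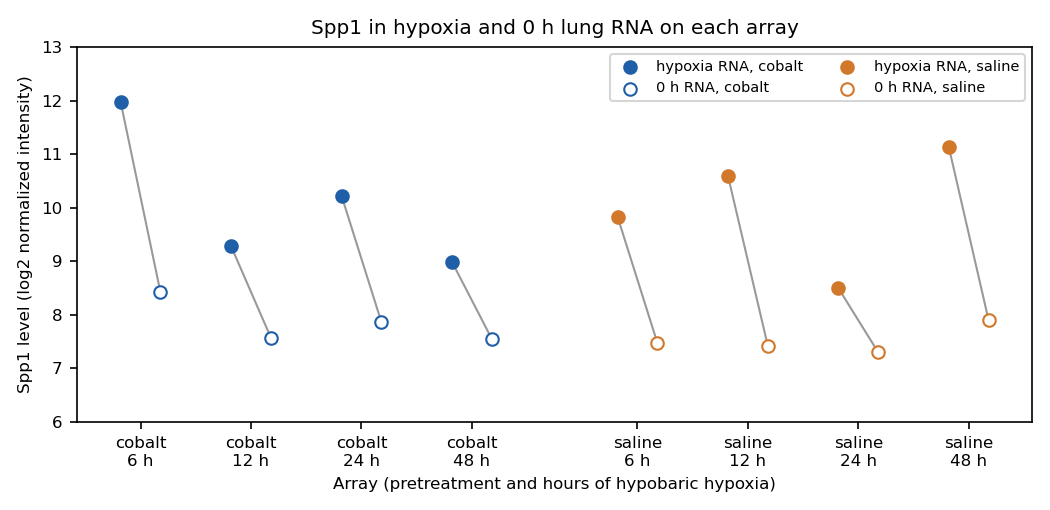
Spp1 level (log2 normalised intensity) in hypoxia RNA (filled) and 0 h RNA (open) on each of the 8 arrays, cobalt left and saline right. Hypoxia levels lie between 8.49 and 11.97 and 0 h levels between 7.30 and 8.42.

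The average Spp1 ratio was 2.37 ± 0.27 (SE, 8 arrays), a 5.18-fold higher level in hypoxia (limma, adjusted p = 0.000322). It was 2.26 ± 0.38 after cobalt (adjusted p = 0.00368) and 2.49 ± 0.38 after saline (adjusted p = 0.00092, 4 arrays each). The cobalt response minus the saline response was -0.23 ± 0.53 (adjusted p = 0.781), with a 95% interval from -1.41 to 0.96. The interval leaves room for a difference in either direction. Under median centring of the ratios in place of loess the cobalt response minus the saline response was -1.44 (adjusted p = 0.0301), as set out further below.

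The Spp1 probe is printed 10 times on each array, which allows the error of the measurement to be set beside the spread between arrays. The SD of the log2 ratio over these spots was 0.038 to 0.16 within an array, whereas the SD over the 4 arrays was 0.94 after cobalt and 0.95 after saline. The arrays therefore differed by more than the spots of 1 array did, but with 1 array per duration a difference between durations cannot be told apart from one between RNA samples or arrays.

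The 0 h channel also moved. The 4 arrays of a pretreatment name the same 0 h RNA, and the SD of the Spp1 0 h level over them was 0.41 after cobalt and 0.26 after saline. For the brighter Mrc1 probe it was 0.32 and 0.14, for Gpnmb 0.16 in both, and for Cd68, the lowest of the 7 genes, 0.026 and 0.053. The highest 0 h level stood on the array with the highest hypoxia level in each pretreatment, at 6 h after cobalt and at 48 h after saline. Before normalisation the mean 0 h signal there was 685 on the cobalt 6 h array, against 291 to 429 on the other cobalt arrays, and 192 on the saline 48 h array, against 96.9 to 115 on the other saline arrays. The part of this in the ratios was not tested.

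Chi3l1 encodes a secreted chitinase-like protein that binds chitin without cutting it and is made by macrophages, neutrophils and epithelium. Its log2 ratios were 1.80, 0.68, 1.56 and 1.72 at 6, 12, 24 and 48 h after cobalt, and 0.53, 0.12, -0.64 and 0.25 after saline. The lowest cobalt array lay above the highest saline array, and only the saline 24 h array was below 0. The average was 0.76 ± 0.15 (1.69-fold, adjusted p = 0.00461).

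Gpnmb encodes a transmembrane glycoprotein of phagocytes and pigment cells. Its ratios were 0.85, 0.086, 0.77 and 0.37 after cobalt and 0.21, -0.11, -0.29 and 0.078 after saline, in order of duration. The cobalt arrays were all above 0 and the saline arrays lay on both sides of it, with some overlap. The average, 0.25 ± 0.092, did not pass (adjusted p = 0.0663), but did without the cobalt 12 h array, at 0.32 (adjusted p = 0.0261).

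Mrc1 encodes the mannose receptor, a lectin of alveolar and alternatively activated macrophages that takes up glycoproteins. Its brighter probe, which stands for the gene, had ratios of 0.020, -0.54, -0.20 and -0.74 after cobalt and 1.61, 1.11, 0.28 and 0.36 after saline. Its dimmer probe had ratios of -0.31, -0.76, -0.058 and -0.61 after cobalt and 1.53, 0.68, -0.072 and 0.68 after saline. For the brighter probe every saline array lay above every cobalt array, and the average of 0.24 ± 0.15 did not pass (adjusted p = 0.246).

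Cd68, a lysosomal glycoprotein and a general marker of macrophages, had ratios of 0.21, -0.30, 0.046 and -0.21 after cobalt and 0.34, 0.16, -0.41 and 0.044 after saline. They scattered around 0 in both pretreatments, with an average of -0.015 ± 0.088 (adjusted p = 0.911) and a 95% interval from -0.21 to 0.18.

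Cd163, the macrophage receptor for haemoglobin bound to haptoglobin, was near the detection limit and no fold is given. The brighter of its 2 probes was well above background in hypoxia RNA on 3 of 4 cobalt arrays and 1 of 4 saline arrays, and in 0 h RNA on 4 of 4 cobalt arrays and 0 of 4 saline arrays. Its levels were 6.35 to 6.86 in hypoxia RNA and 6.65 to 6.89 in 0 h RNA after cobalt. The second probe did not pass the filter.

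Fabp4 encodes a fatty acid carrier found in adipocytes, capillary endothelium and some macrophages. Its ratios were 1.72, 0.050, 1.02 and 0.84 after cobalt and 0.72, 1.17, 0.21 and 0.25 after saline. All 8 were above 0 and the pretreatments overlapped. The average was 0.75 ± 0.17 (1.68-fold, adjusted p = 0.00824), on a dim probe with a mean log2 level of 7.68 in hypoxia RNA and 6.93 in 0 h RNA, where the offset added in background correction shrinks the ratio. The scanner software's own ratio averaged 1.35 for Fabp4 and 2.95 for Spp1.

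**Figure D2:**
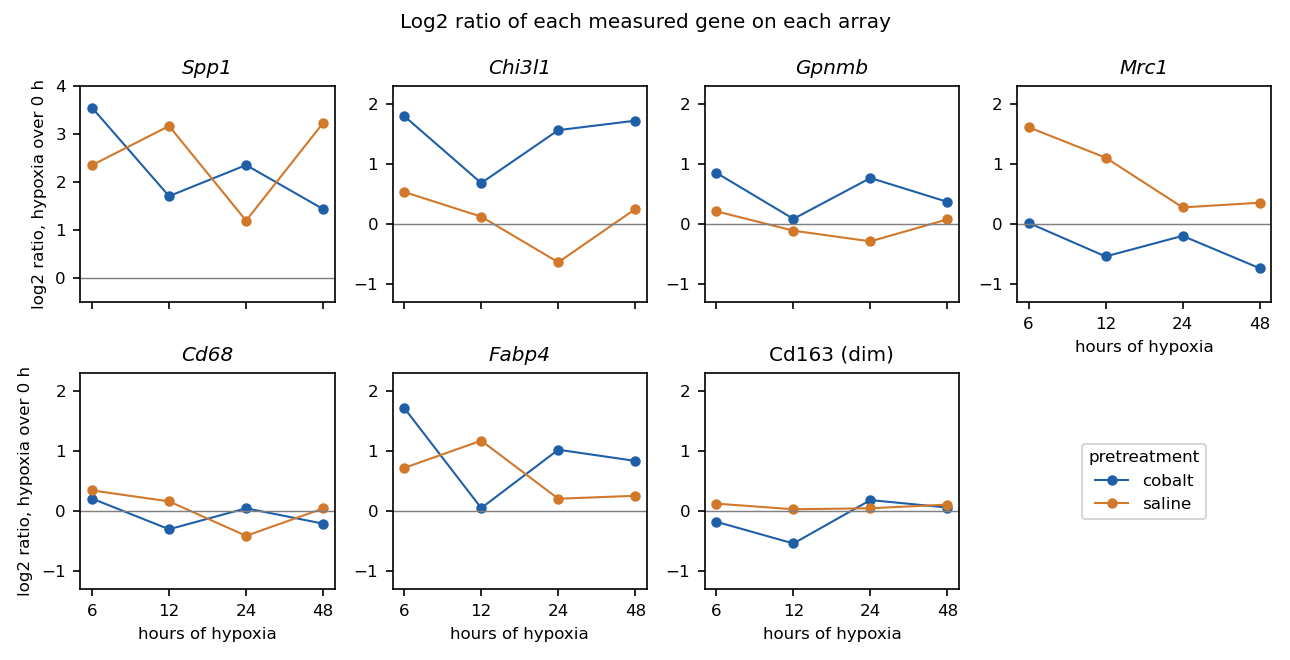
Log2 ratio of hypoxia over 0 h on each array (y axis) against hours of hypoxia (x axis, evenly spaced) for the 7 genes with a probe, cobalt in blue and saline in orange; the Spp1 panel has its own scale. In 6 of the 7 panels, all but Cd163, the 6 h point is the highest of the cobalt arrays and the 24 h point the lowest of the saline arrays.

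The genes shared their highest cobalt array and their lowest saline array. Leaving out the dim Cd163, 6 of 6 had their highest cobalt ratio at 6 h and 6 of 6 their lowest saline ratio at 24 h. The dimmer Mrc1 probe, which does not stand for the gene, had its highest cobalt ratio at 24 h, as did the probe assigned to Msr1 described further below. Over all genes tested, 33.2% had their highest cobalt ratio at 6 h and 19.8% their lowest saline ratio at 24 h. The lowest cobalt ratio was at 12 h for 4 of the 6 genes and at 48 h for 2, against 22.2% and 31.4% of all genes. The highest saline ratio was at 6 h for 4, at 12 h for 1 and at 48 h for 1, against 30.4%, 25.9% and 25.6%. Each of these arrays is 1 hybridisation of 1 RNA, so that duration and array cannot be told apart.

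Setting 24 and 48 h against 6 and 12 h, limma called none of the 7 genes, and 0% of all genes, in the average, in cobalt or in saline. At an unadjusted p under 0.05 there were 2 of the 7 genes in the average, against 12.9% of all genes, 1 in cobalt (8.19%) and 1 in saline (10.2%). They were Mrc1 and the dim Cd163 in the average, Cd163 in cobalt and Mrc1 in saline. A slope over duration called 405 genes in the average, none of them among the 7. For Mrc1 the late minus early difference was -0.63 ± 0.19 in the average (adjusted p = 0.311) and -1.04 ± 0.26 in saline (adjusted p = 0.367). Its dimmer probe gave -0.30 ± 0.26 in the average and -0.80 ± 0.36 in saline. For Spp1 the average difference was -0.64 ± 0.55 (adjusted p = 0.648), and it ran from -1.15 to -0.13 when each array was left out in turn.

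Within the pretreatments, 4 of the 7 genes were called after cobalt, all higher in hypoxia, against 20.8% of all genes, 8.54% as higher and 12.3% as lower. They were Spp1, Chi3l1 at 1.44 ± 0.21 (adjusted p = 0.00215), Fabp4 at 0.91 ± 0.23 (adjusted p = 0.0238) and Gpnmb at 0.52 ± 0.13 (adjusted p = 0.0207). Without the cobalt 6 h array, and again without the cobalt 24 h array, the calls of Fabp4 and Gpnmb were lost and 2 of the 7 genes stayed called. Over all genes 12.6% and 9.39% were then called. Fabp4 was also lost without the cobalt 48 h array (adjusted p = 0.0616).

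After saline, 2 of the 7 genes were called, both higher, against 40.1% of all genes, 21.8% as higher and 18.3% as lower. They were Spp1 and Mrc1, which had an estimate of 0.84 ± 0.21 (adjusted p = 0.0108). Fabp4 had 0.59 ± 0.23 (adjusted p = 0.0708), Chi3l1 0.068 ± 0.21 and Gpnmb -0.027 ± 0.13.

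The responses to hypoxia differed between cobalt and saline for 3 of the 7 genes, against 30.1% of all genes, 12.7% with a higher and 17.4% with a lower response after cobalt. The cobalt response minus the saline response was 1.37 ± 0.30 for Chi3l1 (adjusted p = 0.00772), 0.55 ± 0.18 for Gpnmb (adjusted p = 0.0482) and -1.20 ± 0.29 for Mrc1 (adjusted p = 0.0136). The Gpnmb call was lost without each of 6 of the 8 arrays, with no filter and with no variance trend. The dimmer Mrc1 probe gave -1.14 ± 0.30. The ratios of the 4 cobalt and 4 saline arrays did not overlap for Chi3l1 and the brighter Mrc1 probe, and neither did those of 31.9% of all genes. Those of the dimmer Mrc1 probe overlapped, at -0.072 on the saline 24 h array and -0.058 on the cobalt 24 h array. For Fabp4 the difference was 0.32 ± 0.33, with a 95% interval from -0.42 to 1.06, and for Cd68 it was -0.099 ± 0.18, with one from -0.49 to 0.30.

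Some results within a pretreatment depended on loess. With the ratios only centred on each array's median, the median of all genes tested moved to -0.49 after cobalt and 0.28 after saline, and the difference had 4104 higher and 14954 lower calls, against 3064 higher and 4201 lower with loess. Gpnmb then turned round, at -0.53 after cobalt and 0.95 after saline, with a difference of -1.48 (adjusted p = 0.000111). The Chi3l1 difference was 0.22 (adjusted p = 0.555), that of Mrc1 -3.26 and that of Cd68 -2.11, both called. In the average, Spp1 at 2.22, Chi3l1 at 0.58 and Fabp4 at 0.71 stayed called.

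**Figure D3:**
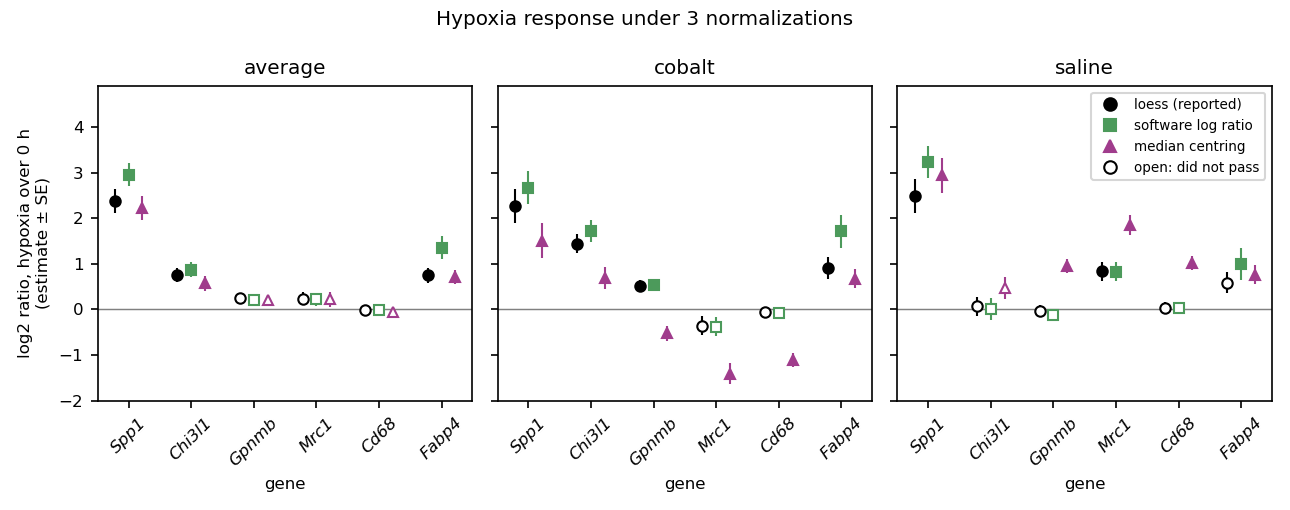
Estimated log2 ratio of hypoxia over 0 h with SE (y axis) for 6 genes in the average, cobalt and saline, after loess (circles), from the scanner software (squares) and after median centring (triangles); open symbols did not pass. In the average the 3 settings give the same calls, with Spp1 and Fabp4 highest from the scanner software, whereas within cobalt and saline median centring moves Gpnmb, Cd68 and Mrc1 apart in opposite directions.

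For levels of both channels together, cobalt minus saline arrays, 1 of the 7 genes was called, against 45% of all genes, 21.6% as higher and 23.4% as lower. It was Cd163, higher on the cobalt arrays (adjusted p = 0.000117). Its probe was mostly not well above background on the saline arrays, and the difference ran from 0.44 to 2.55 over 18 settings, the highest with the software's signals, so no single size is given for it. Here slide and pretreatment cannot be told apart.

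Outside the naming rule, the probe that the files name RGD1564316_predicted carries an accession that RefSeq now assigns to Msr1, a class A scavenger receptor. Its ratios were -0.22, -0.40, 0.51 and 0.18 after cobalt and 0.13, -0.29, -0.085 and 0.24 after saline, with an average of 0.0079 ± 0.0996 (adjusted p = 0.961). They lay on both sides of 0 in each pretreatment. In levels of both channels together, cobalt minus saline arrays, this probe had 0.97 ± 0.13 (limma, adjusted p = 0.000202 over 28419 probes). Slide and pretreatment cannot be told apart in that difference. A probe named LOC367391, described in the files as similar to MARCO, was well above background on 1 of 8 arrays in each channel.

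Among the genes with a symbol whose 8 ratios lay nearest those of Spp1, by root mean square difference over the 8 arrays, were Kng1 at 0.68, Kng2 at 0.73, Ntrk2 at 0.84 and Serpina3n at 0.85. Kng1 and Kng2 encode kininogens and are close copies whose probes may share RNA, Ntrk2 encodes a neurotrophin receptor and Serpina3n a serine protease inhibitor. Their average estimates were 2.31, 2.25, 2.37 and 1.98 in that order, against 2.37 for Spp1. Of the other 6 measured genes of the group the closest to Spp1 was Fabp4, at 1.76, and Cd68 and Gpnmb lay 0.44 from each other.

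Called partners of osteopontin were found in both directions, as were called genes over all genes tested, of which 15.7% were higher and 16.3% lower in the average. Of 6 measured osteopontin receptor genes 1 rose and 2 fell in the average, with a median of -0.037. Itgav, the alpha subunit of the vitronectin receptor, rose by 0.42 ± 0.079 (adjusted p = 0.00362) and was above 0 on all 8 arrays. Itgb6, an epithelial beta subunit that pairs with it, had -0.91 ± 0.10 (adjusted p = 0.000347) and was below 0 on all 8 arrays, while Cd44 had 0.083 and did not pass. Of 4 measured proteases that cleave osteopontin 2 rose and 1 fell, with a median of 0.24: F2, prothrombin, rose by 0.87 ± 0.22 (adjusted p = 0.016), with -0.14, -0.016 and -0.37 on the cobalt arrays at 12, 24 and 48 h but 0.63 to 1.95 on the other 5 arrays. Mmp2, a gelatinase, had -0.32 ± 0.094 (adjusted p = 0.0294). The 1 measured relative of Spp1 in its gene family, Dspp, did not pass. Its probe was dim, with log2 levels of 6.27 to 6.46 in hypoxia RNA and 6.23 to 6.44 in 0 h RNA, and no ratio is given.

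Called genes of the other macrophage lists were also found in both directions, and their counts stand against the same 15.7% higher and 16.3% lower over all genes. Of 10 measured alveolar macrophage markers 3 rose and 1 fell, with a median of 0.14. Pparg, the transcription factor of alveolar macrophage maturation, rose by 0.41 ± 0.073 (adjusted p = 0.00295) and was above 0 on all 8 arrays. Abcg1, a lipid exporter, had -0.58 ± 0.072 (adjusted p = 0.000544), with -0.097 to 0.025 on the cobalt arrays and -1.48 to -0.75 on the saline arrays. Of 13 measured markers of monocytes and interstitial macrophages 1 rose and 5 fell, with a median of -0.17. Those that fell included Ccr2, the chemokine receptor of recruited monocytes, at -0.29 ± 0.059 (adjusted p = 0.00582) and Lyz2, lysozyme, at -0.36 ± 0.090 (adjusted p = 0.0138). The size for Ccr2 depended on the processing and ran from -0.82 to -0.24 over 19 settings. Lyz2 was above 0 on all 4 cobalt arrays and below 0 on all 4 saline arrays. By pretreatment, 1 of the 10 alveolar macrophage markers was higher and none lower after cobalt, with a median of 0.0015, against 8.54% and 12.3% of all genes. After saline 3 were higher and 2 lower, with a median of 0.14, against 21.8% and 18.3%. Sums weigh bright genes most and can part from these medians. For alveolar macrophage markers the summed intensity after cobalt was 63537 to 97480 in hypoxia RNA and 48385 to 55370 in 0 h RNA. After saline it was 54777 to 68517 in hypoxia RNA and 72529 to 76897 in 0 h RNA. For monocyte and interstitial macrophage markers it was 60298 to 86530 and 97243 to 139457 after saline, in the same order. After cobalt, their hypoxia and 0 h sums overlapped. On the saline arrays the median log2 ratio of these 13 genes was -0.10, 0.17, -0.36 and 0.41 at 6, 12, 24 and 48 h. Their sum was lower in hypoxia RNA on all 4. The alveolar macrophage sum was higher in the Cy3 channel on all 8 arrays, so dye and response cannot be told apart in it.

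Of 3 measured macrophage growth factor genes none rose and 2 fell: Csf1r, the receptor of the main macrophage growth factor, had -0.60 ± 0.13 (adjusted p = 0.0063) and Csf2 -0.16 ± 0.049 (adjusted p = 0.0311). Of 14 lysosome and phagocyte genes none rose and 2 fell, with a median of 0.018: Lipa, lysosomal acid lipase, had -0.21 ± 0.056 (adjusted p = 0.0204) and Tyrobp, a signalling adaptor of myeloid receptors, -0.31 ± 0.085 (adjusted p = 0.022). Of 7 scavenger receptors 2 rose and 1 fell, with a median of -0.090. Scarb2, a lysosomal membrane protein, rose by 0.36 ± 0.079 (adjusted p = 0.00813) and Scara3 had -0.24 ± 0.046 (adjusted p = 0.0038). The size for Scara3 depended on the processing and ran from -1.47 to -0.16 over 19 settings. The summed intensity of the 7 receptors was lower in hypoxia RNA on all 4 saline arrays, and the 2 channels overlapped after cobalt. Of 8 genes linked to alternative activation 4 rose and none fell, with a median of 0.24. Chia, an acidic chitinase related to Chi3l1 and made largely by epithelium, led them with 1.75 ± 0.088 (adjusted p = 4.74e-06), its ratios being 0.65 to 1.39 on the cobalt arrays and 2.42 to 2.63 on the saline arrays. Ccl17, a chemokine, rose by 0.48 ± 0.095 (adjusted p = 0.00487). The summed intensity of these genes was higher in hypoxia RNA on all 8 arrays. For lysosome and phagocyte genes the summed intensity after cobalt was 147277 to 185384 in hypoxia RNA and 137540 to 140902 in 0 h RNA. After saline it was 120828 to 141697 in hypoxia RNA and 146891 to 160083 in 0 h RNA. The Cy3 channel thus had the higher sum on all 8 arrays, and dye and response cannot be told apart in it. After cobalt 3 of the 14 genes were higher and 1 lower, against 8.54% and 12.3% of all genes. After saline 2 were higher and 3 lower, against 21.8% and 18.3%.

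**Figure D4:**
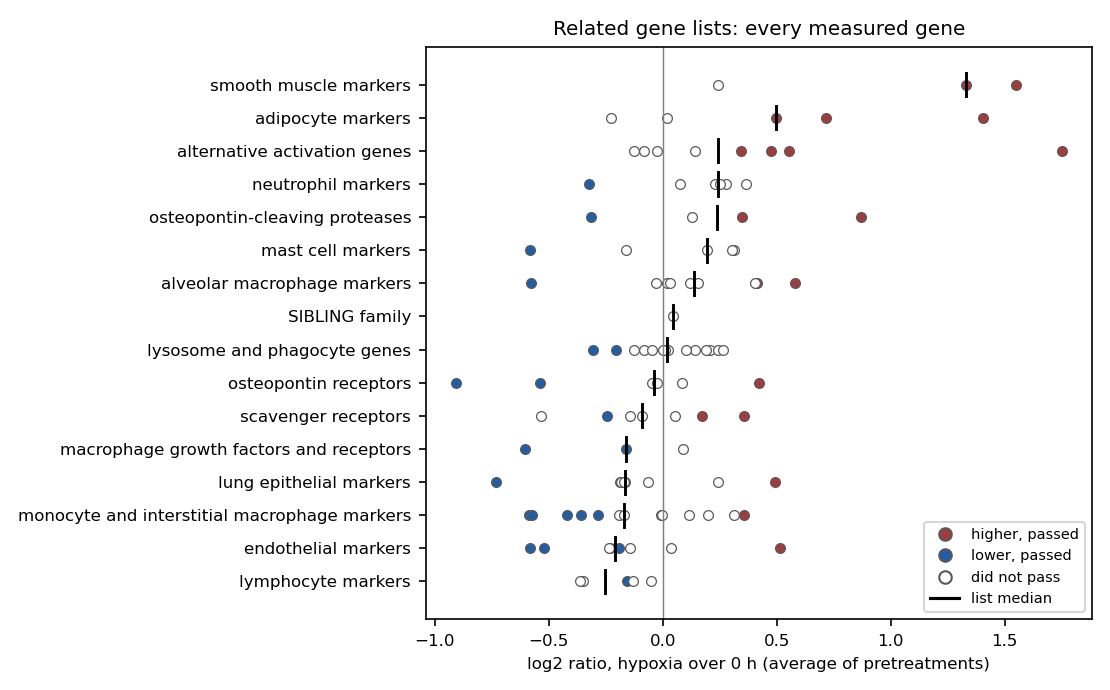
Average log2 ratio of hypoxia over 0 h (x axis) of every measured gene of 16 related lists (rows), filled where it passed (red higher, blue lower), with the list median as a bar. The macrophage lists have medians between -0.17 and 0.24 with members on both sides of 0, while the median of the 3 smooth muscle markers is 1.33.

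Markers of other cell types that express some of these genes were called in both directions, against 15.7% higher and 16.3% lower over all genes. Of 5 measured adipocyte markers 3 rose, Lipe by 0.50 ± 0.079, Cfd by 0.72 ± 0.14 and Retn by 1.41 ± 0.35, while Adipoq had 0.020 and Cidec -0.23 and neither passed. Plin1 and Lep did not pass the filter on dim probes. The summed intensity of the 5 was 3148 to 4254 in hypoxia RNA and 1899.7 to 2440.1 in 0 h RNA on the cobalt arrays, and 1832 to 6092 in hypoxia RNA and 1717 to 2203 in 0 h RNA on the saline arrays. Of 8 endothelial markers 1 rose and 3 fell, with a median of -0.21, Tek, the angiopoietin receptor, having -0.52 ± 0.057 and Egfl7, a secreted endothelial factor, 0.52 ± 0.089. By pretreatment, 2 were higher and none lower after cobalt, against 8.54% and 12.3% of all genes. After saline none were higher and 5 lower, against 21.8% and 18.3%. Their summed intensity was 101604 to 137543 in hypoxia RNA and 84859 to 88174 in 0 h RNA on the cobalt arrays, and 73840.3 to 88859 in hypoxia RNA and 103075 to 128697 in 0 h RNA on the saline arrays. The endothelial sum was thus higher in the Cy3 channel on all 8 arrays, and dye and response cannot be told apart in it. The part of these cells in the Fabp4 ratio was not tested.

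Of 3 measured smooth muscle markers 2 rose, Cnn1 by 1.55 ± 0.099 (adjusted p = 1.85e-05) and Tagln by 1.33 ± 0.093 (adjusted p = 2.79e-05), both above 0 on all 8 arrays. The third marker was below 0 on 3 saline arrays, at -0.78, -1.03 and -0.60 at 6, 12 and 24 h. The lowest ratio of the 3 was 0.10 on the saline 48 h array and 0.69 to 1.44 on the cobalt arrays. The summed intensity of the 3 was 22086 to 38476 in hypoxia RNA and 10206 to 11457 in 0 h RNA on the cobalt arrays. On the saline arrays it was 11416 to 18698 in hypoxia RNA and 10926 to 12192 in 0 h RNA. Of 6 neutrophil markers none rose and 1 fell, with a median of 0.24, Csf3r, the receptor of the granulocyte growth factor, having -0.32 ± 0.087 (adjusted p = 0.0185) and Mmp8, a collagenase, 0.37 ± 0.15 (adjusted p = 0.0841). Of 8 lung epithelial markers 1 rose and 2 fell, with a median of -0.17, Ager, a marker of flat alveolar cells, having -0.73 ± 0.18 and Foxj1, the factor of ciliated cells, 0.49 ± 0.12. After cobalt 3 were higher and 2 lower, against 8.54% and 12.3% of all genes. After saline 2 were higher and 5 lower, against 21.8% and 18.3%. Their summed intensity was 223082 to 325626 in hypoxia RNA and 195042 to 203816 in 0 h RNA on the cobalt arrays. It was 154509 to 189758 in hypoxia RNA and 291767 to 355474 in 0 h RNA on the saline arrays. The sum was thus higher in hypoxia after cobalt and lower after saline, and so higher in the Cy3 channel on all 8 arrays. The endothelial, lysosome and alveolar macrophage sums did the same. Dye and response to hypoxia cannot be told apart in these sums. Among non-control spots, 120 to 232 per array were saturated in Cy5 (red) and 0 to 2 in Cy3 (green). The part of this in the sums was not tested. Of 5 mast cell markers none rose and 1 fell, with a median of 0.20, Kit, the stem cell factor receptor, having -0.58 ± 0.092 and Cma1, a chymase, 0.31 ± 0.15 without passing. Of 6 lymphocyte markers none rose and 2 fell, with a median of -0.25, among them Cd2 at -0.36 ± 0.084. The part of these cells in the Spp1 and Chi3l1 ratios was not tested.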

How the data were processed

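Per the file headers, the authors' scanner files came from Agilent Feature Extraction 9.5.1.1 with probe positions on rn3. Mean signals and backgrounds are deposited as intensity, and LogRatio is deposited as log10 of Cy5 over Cy3 signal, corrected by the software. The deposited series matrix holds log2 ratios whose scale, sign and centring were read by setting them against LogRatio. Of each array's 45018 spots, 43379 were not controls. Of these, 57.7% to 67.2% were well above background in green and 63.5% to 72.7% in red, and 128 to 214 outlier spots per array were dropped.

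With limma 3.58.1 (R 4.3.3; package data.table, version 1.17.8), signals were corrected by normexp (offset 50) and ratios by loess in each array, with mean intensities made equal in quantiles between arrays for levels only. The fit used 28419 probes: each had a channel well above background on 4 or more of the 8 arrays and no missing value, and the brightest probe stood for a gene. limma was fitted with a variance trend on pretreatment. Ratios correlated at 0.56 to 0.70 between saline arrays, 0.41 to 0.75 between cobalt arrays and -0.10 to 0.27 between pretreatments.

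The genes and the 16 lists were chosen with earlier results of these data known. All genes and probes of the naming rule, the 2 genes of each list with the lowest p in the average, and the 5 genes nearest Spp1 were to be named, of which some are not reported here, with further list genes added after their values were seen. Fits were tested on simulated data. As alternatives, the series matrix and the software's log ratio were used; others were no background subtraction, median centring, scaling between arrays, other filters, the mean over probes, outlier spots kept, no variance trend, duration as a factor, a slope over duration and leaving out each array. The number of arrays limits the precision. Labels do not show whether arrays hold separate animals.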

Additional observations from a re-analysis of the deposited data

Results flagged for a closer look

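The response to hypoxia differed between cobalt and saline for 3 genes by a test of the difference itself. Mrc1 had -1.2012 (log2, cobalt response minus saline response), Chi3l1 1.3745 and Gpnmb 0.5461. All 3 rest on 4 cobalt arrays of slide 2 with hypoxia RNA in Cy3 and 4 saline arrays of slide 1 with hypoxia RNA in Cy5, so that pretreatment, slide, scan and dye cannot be told apart. Mrc1 kept its sign and its call under all 20 settings and on both of its probes. Chi3l1 kept its sign under all 20 and its call under 19, and Gpnmb kept its call under 12, one of them with the opposite sign.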

How the results depend on the processing

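Over 20 settings, the reported one included, the averages of Spp1 (2.16 to 2.95), Chi3l1 (0.58 to 0.88) and Fabp4 (0.61 to 1.35) stayed called. The number of the 7 genes called in the average was 3, or 4 without the cobalt 12 h array, where 24.3% of all genes were called. Leaving out each array in turn gave 2 to 4 in cobalt, 2 to 3 in saline, 2 to 3 in the difference, 1 to 2 in levels and 0 for late minus early hypoxia. Of all genes it called 9.39% to 23.2% in cobalt and 31.3% to 39.6% in saline. In the difference it called 21.5% to 30.1% of them, and in levels 36.9% to 47.2%. In saline the number of the 7 genes was 4 with the software's log ratio, 4 with the series matrix and 5 with median centring. The shares of all genes called there were 40.8%, 40.7% and 59.1%. In levels the number was 0 with the strict filter, which left Cd163 untested.

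Signs turned for uncalled values and under median centring. Median centring gave Gpnmb -0.53 in cobalt, 0.95 in saline and -1.48 in the difference, and Fabp4 -0.081 in the difference; the cause of these turns was not tested. Scaling between arrays gave Spp1 0.53 in the difference. Leaving out each array gave Cd68 -0.067 to 0.059 in the average, -0.16 to 0.015 in cobalt, -0.070 to 0.18 in saline and -0.25 to 0.0048 in the difference; Chi3l1 -0.088 to 0.30 and Gpnmb -0.11 to 0.060 in saline; and Spp1 -0.66 to 0.050 in the difference. The Gpnmb difference lost its call without each of 6 arrays, with no filter (adjusted p = 0.0574) and with no variance trend (adjusted p = 0.0507). Of the list genes, Mmp2 was called under 13 of 20 settings, Csf2 under 14, Tyrobp under 16, Csf3r under 17, Lyz2 and Lipa under 18 and Scarb2 under 19 of 20, and the sign of the median of osteopontin receptors (-0.20 to 0.024) and of lysosome genes (-0.027 to 0.056) turned.

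No paired analysis by replicate number was possible because each pretreatment and duration holds 1 array. Durations pair the arrays instead, and a fit with duration as a block called 3 of the 7 genes in the average, and 7677 of all genes against 7711 without it.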
